A study of Mus musculus with 96 samples.

Results

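The genes described are 7 that make, use or carry ammonia in the kidney: Glud1, Glul, Slc38a3, Got1, Got2, Rhbg and Rhcg. They were chosen by symbol as a set of ammonia production and transport genes, with no expression value in the rule. All 7 were found among the 54532 genes of the deposited table. The set was, however, proposed with earlier results of these data known, so the set is not blind to expression. Transcript abundance was measured by RNA sequencing of very small inputs in glomeruli and 14 tubule segments dissected by hand from kidneys of untreated male C57BL/6 mice aged 6 to 8 weeks on normal chow. No animal carried an allele or received an agent, so the comparison is between places along the nephron. The 93 samples came from 53 mice, and pieces of the same mouse number and segment were averaged first, which left 3 to 5 mice in each of 15 groups.

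The groups are named as in the labels. Glomeruli came first. PTS1 is the start of the convoluted proximal tubule, PTS2 its straight portion within the medullary rays, and PTS3 the last straight portion, in the outer stripe. DTL1 is the thin descending limb of short loops, DTL2 and DTL3 are the outer and inner medullary parts of the thin descending limb of long loops, and ATL is the thin ascending limb. MTAL and CTAL are the medullary and cortical thick ascending limbs. DCT is the distal convoluted tubule, CNT the connecting tubule, and CCD, OMCD and IMCD are the collecting duct in the cortex, outer medulla and inner medulla. PTS2, CTAL and CCD had 5 mice each, ATL and OMCD 4, and every other group 3. Values are TPM (transcript abundances divided by gene length and brought to a common sum per sample), so levels of different genes may be set side by side. Each value is relative to all RNA in its sample.

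As background, the kidney rids the body of acid by excreting ammonium. Proximal tubule cells take up glutamine and release its nitrogen as ammonium in the mitochondria, in part through glutamate dehydrogenase, and the carbon skeleton can be made into glucose. Ammonium is secreted into the lumen, reabsorbed by the thick ascending limb into the medulla, and moved into the collecting duct urine through Rh glycoproteins. Glutamine synthetase runs the opposite way and consumes ammonium, and aspartate aminotransferases exchange nitrogen between glutamate and aspartate.

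Marker lists were read in every group. The proximal list of 9 genes summed to at least 21508 TPM in each mouse of PTS1, PTS2 and PTS3, and the intercalated cell list of 11 genes had all 11 at 1 TPM or more in DCT, CNT, CCD and OMCD. Some groups stood apart. The 5-gene thin limb list summed to 527 to 1359 TPM in DTL1, near the 941 to 1047 TPM of MTAL, against 8885 to 21865 TPM in DTL2, DTL3 and ATL. Proximal markers still summed to between 1111 and 4379 TPM in DTL1, with endothelial markers at 2764 to 3652 TPM there against 2993 to 3058 TPM in glomeruli. Genes at 1 TPM or more numbered 26044 to 28418 in the samples of DTL1, 22250 to 24500 in DTL3 and 17220 to 21878 in DTL2, against 11291 to 14099 in the proximal segments. Glomeruli had 22461 to 29603 and OMCD 16644 to 20672, against 13375 to 13813 in CCD and 12850 to 17486 in IMCD. ATL was divided, since mouse 2 had 13949 and mouse 3 had 13532 such genes, whereas mouse 4 had 23465 and mouse 6 had 24647. Olfactory and vomeronasal receptor genes at 1 TPM or more were counted too. DTL1 samples had 753 to 916 of them, DTL3 483 to 619, DTL2 129 to 451 and ATL 20 to 703. Glomeruli had 381 to 977, OMCD 80 to 273, IMCD 3 to 152 and PTS1 12 to 53. PTS2, PTS3 and the groups from MTAL to CCD had 0 to 5. The part of these features in the results was not tested. Values that rest on these groups are given with that in view.

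Differences were tested with limma on log2(TPM + 1), with Benjamini-Hochberg adjustment over 33793 genes that reached 1 TPM in at least 3 mice. All 7 members were among them. A difference was called at an adjusted p under 0.05 and a size of at least 1 log2 unit, and every difference below is on this scale, which understates the change of low genes. The F-test across the 15 groups was passed by 7 of 7 members, against a background of 93.9% of all genes, so passing it did not set them apart. No member stood above all 14 other groups by the 1 log2 unit required (0 of 7 by limma, against 8.8% of all genes). The margin of the highest group over the next lay between 0.03 (Rhcg) and 0.64 (Slc38a3), and the unadjusted one-sided p was under 0.05 for Slc38a3 (0.0416) and Rhbg (0.0078). Between groups, 45 differences of members were called and 67 were not. Over the same comparisons the share of all genes called ran from 1.12% (CNT minus CCD) to 65.5% (PTS3 minus DTL1), so this count is not read alone.

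**Figure D1:**
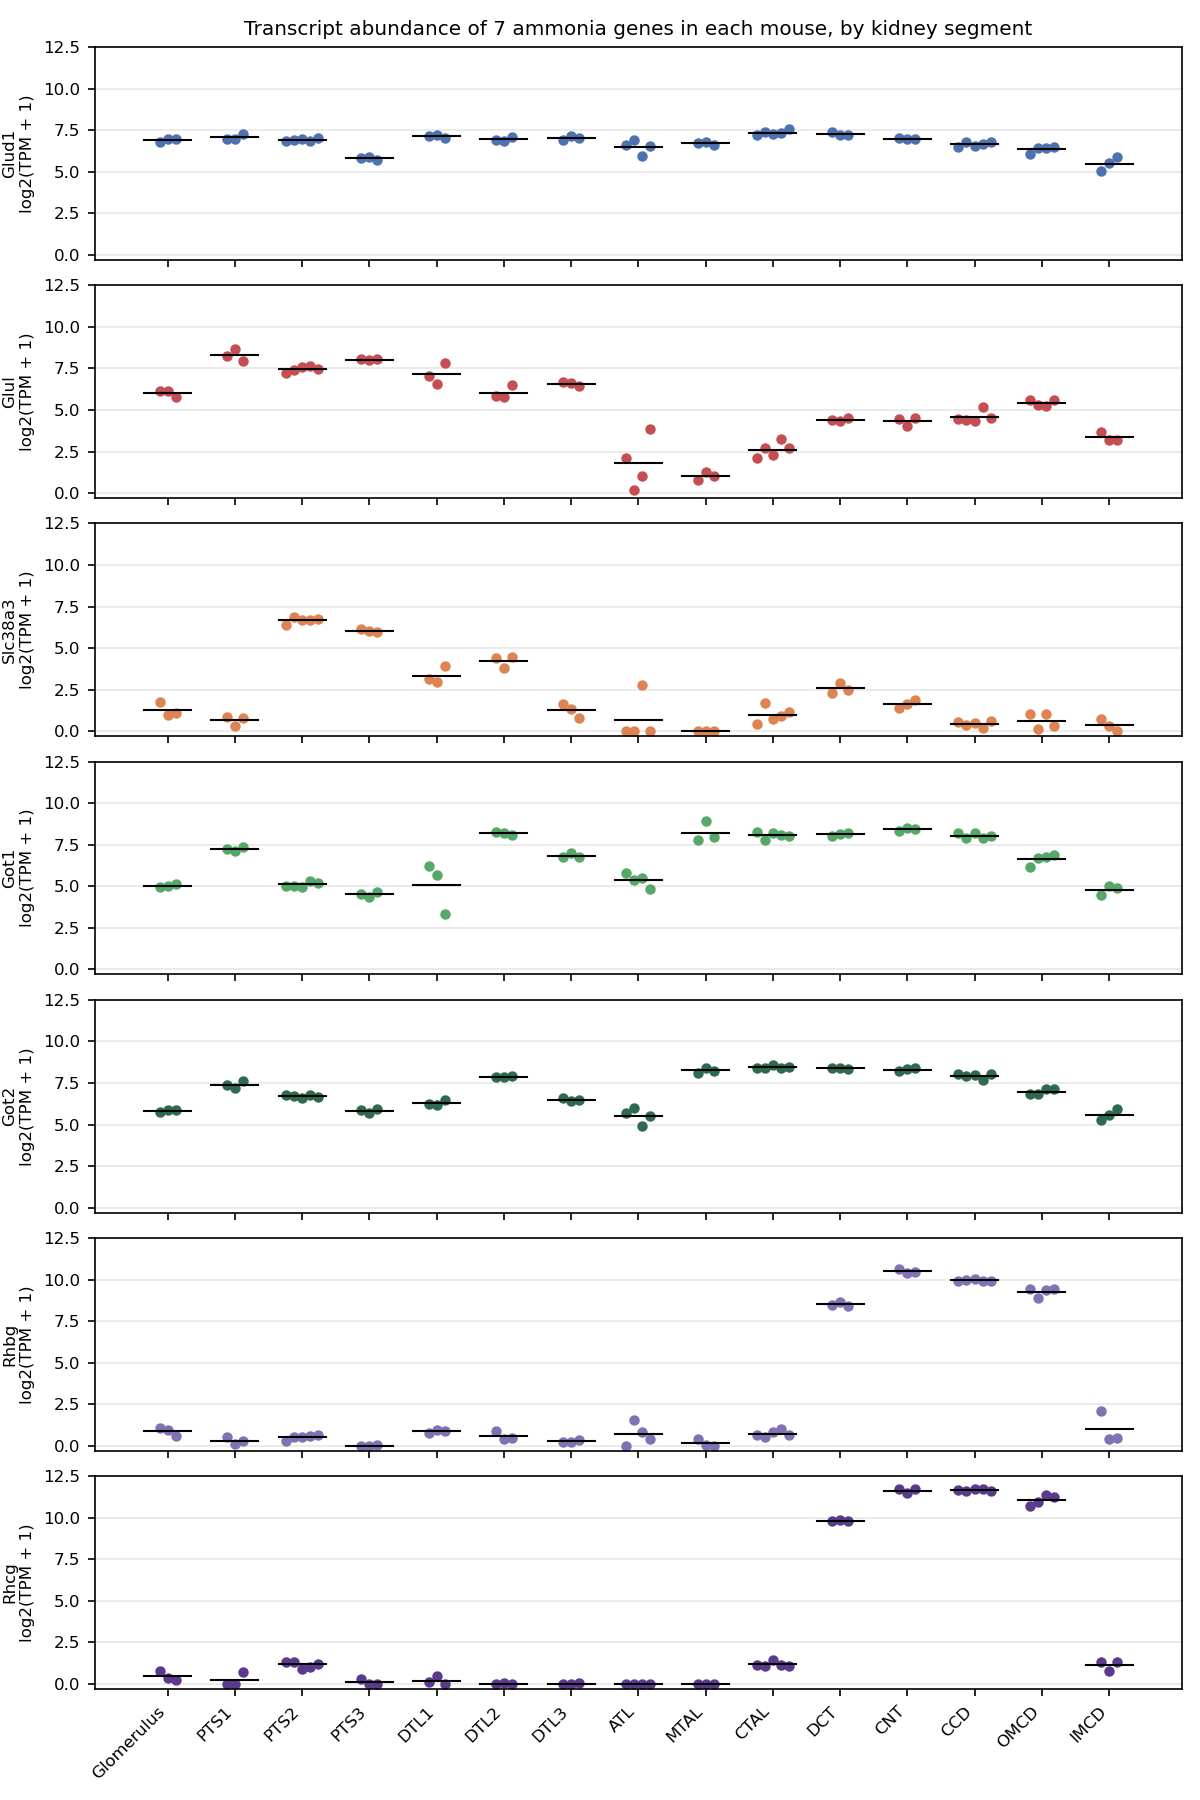
Transcript abundance of the 7 genes, as log2(TPM + 1) on the vertical axis, in the 15 groups in order along the nephron; points are mice and bars are group means. Glud1 stays within a narrow band, Glul and Slc38a3 are highest in proximal groups, Got1 and Got2 are highest from MTAL to CCD and in DTL2, and Rhbg and Rhcg are abundant from DCT to OMCD.

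Glud1 encodes glutamate dehydrogenase, the mitochondrial enzyme that releases ammonium from glutamate, and it was expressed in every group. Its mean ranged from 44.8 ± 12.99 TPM (SD, n = 3) in IMCD to 162 ± 15 TPM (n = 5) in CTAL, a ratio of 3.61, the smallest range of the 7. In CTAL the 5 mice had 149, 165, 151, 157 and 186 TPM, and in DCT the 3 mice had 166, 148 and 145 TPM. The order of means ran CTAL, DCT, DTL1, PTS1, DTL3, CNT, DTL2, PTS2, glomerulus, MTAL, CCD, ATL, OMCD, PTS3 and IMCD. Mice of neighbours in this order overlapped everywhere except between OMCD and PTS3, so the upper 13 groups form a continuum. The samples are bulk RNA, so fewer cells of a type and less RNA per cell cannot be told apart.

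Within the proximal tubule Glud1 was lowest at its end. The PTS3 mice had 55.7, 58.2 and 51.1 TPM, the PTS1 mice 125, 122 and 153 TPM, and the PTS2 mice 113, 118, 126, 115 and 129 TPM. Neither of the earlier segments overlapped PTS3. The difference was 1.12 log2 units (SE 0.14, adjusted p = 4.32e-08) for PTS2 minus PTS3 and 1.26 (SE 0.16, adjusted p = 1.09e-08) for PTS1 minus PTS3. The first of these depended on scaling, with 0.93 after median ratio rescaling and 0.68 after quantile normalization, both under the size required. PTS1 and PTS2 differed by 0.14 (SE 0.14, adjusted p = 0.615). The mean over the 3 proximal groups was 103 TPM and that over CNT, CCD and OMCD was 102 TPM, with a difference of -0.07 (SE 0.08, adjusted p = 0.596).

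Glul encodes glutamine synthetase, which fixes ammonium onto glutamate. Its range was the widest among the 4 metabolic enzymes, a ratio of 303 from 319 ± 77.4 TPM (SD, n = 3) in PTS1 to 1.05 ± 0.34 TPM (n = 3) in MTAL. The PTS1 mice had 303, 403 and 250.14 TPM, the PTS3 mice 265, 254 and 264 TPM, and the PTS2 mice 149, 168, 190.4, 198 and 178 TPM. PTS2 lay below both of its proximal neighbours without overlap, but neither difference was called: PTS1 minus PTS2 was 0.83 (SE 0.37, adjusted p = 0.138) and PTS2 minus PTS3 was -0.57 (SE 0.37, adjusted p = 0.587). The descending thin limbs had means of 150 ± 67.5, 66.8 ± 20.2 and 95.5 ± 7.5 TPM (SD, n = 3 each) in DTL1, DTL2 and DTL3. PTS3 minus DTL1 was 0.89 (SE 0.42, adjusted p = 0.0482), and was called after median ratio rescaling (2.30) and without DTL1 mouse 5 (1.23), which had 225 TPM against 131 and 93.8 TPM in the others. The glomerulus had 64.0 ± 8.5 TPM (n = 3).

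Glul was nearly absent where the loop turned upward. The ATL mice 2, 3, 4 and 6 had 3.37, 0.14, 1.03 and 13.8 TPM, and the MTAL mice had 0.71, 1.38 and 1.06 TPM. DTL3 minus ATL was 4.78 (SE 0.39, adjusted p = 1.46e-13), and 5.47 without ATL mouse 6, the highest of the 4. Endothelial markers summed to 633 to 1589 TPM in DTL3 and 149 to 239 TPM in ATL, and their part in this step was not tested. Glul was higher again further on. The 5 CTAL mice had 3.31, 5.59, 3.92, 8.45 and 5.48 TPM, all above the MTAL mice, and MTAL minus CTAL was -1.62 (SE 0.37, adjusted p = 0.00294), which with a pseudocount of 5 was -0.75 and no longer called. Proximal markers summed to 0.81 to 15.5 TPM in MTAL and 82.7 to 439.6 TPM in CTAL, and their part in this difference was not tested. The DCT mice had 19.9, 19.4 and 22.0 TPM, and CTAL minus DCT was -1.83 (SE 0.37, adjusted p = 0.000407). From DCT to CCD the means lay between 19.2 and 23.5 TPM with overlapping mice.

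In the collecting duct Glul had its highest mean in the outer medulla. The OMCD mice had 47.9, 38.5, 36.6 and 48.3 TPM and the IMCD mice 11.8, 8.10 and 8.22 TPM, with no overlap. OMCD minus IMCD was 2.18 (SE 0.39, adjusted p = 1.57e-05). Intercalated cell markers summed to 3943 to 5400 TPM in OMCD and 1.11 to 7.07 TPM in IMCD, and their part in this difference was not tested. CCD minus OMCD was -0.85 (SE 0.34, adjusted p = 0.0578), although no CCD mouse reached the lowest OMCD mouse. Set against the collecting groups, the proximal groups had 8.83 times the mean level, 252 against 28.5 TPM, and the difference was 3.15 (SE 0.22, adjusted p = 4.69e-17).

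Glud1 stands for the release of ammonium and Glul for its fixation, in different reactions, and their TPM ratio changed along the tubule. Glud1 over Glul was 0.442 ± 0.156 (SD, n = 3) in PTS1, 0.687 ± 0.068 (n = 5) in PTS2 and 0.211 ± 0.018 (n = 3) in PTS3, so Glul was the more abundant transcript in every proximal mouse. The ratio was 33.1 ± 10.0 (n = 5) in CTAL, with mice between 18.5 and 45.1. It was 7.51 ± 0.88 (n = 3) in DCT, 6.70 ± 1.29 (n = 3) in CNT, 4.43 ± 0.99 (n = 5) in CCD, 1.93 ± 0.42 (n = 4) in OMCD and 5.08 ± 2.20 (n = 3) in IMCD. In the glomerulus and in DTL1, DTL2 and DTL3 the means were 1.90, 1.09, 1.94 and 1.35. ATL and MTAL are not given because Glul was under 1 TPM in a mouse of each. The ratio is a description and was not tested.

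**Figure D2:**
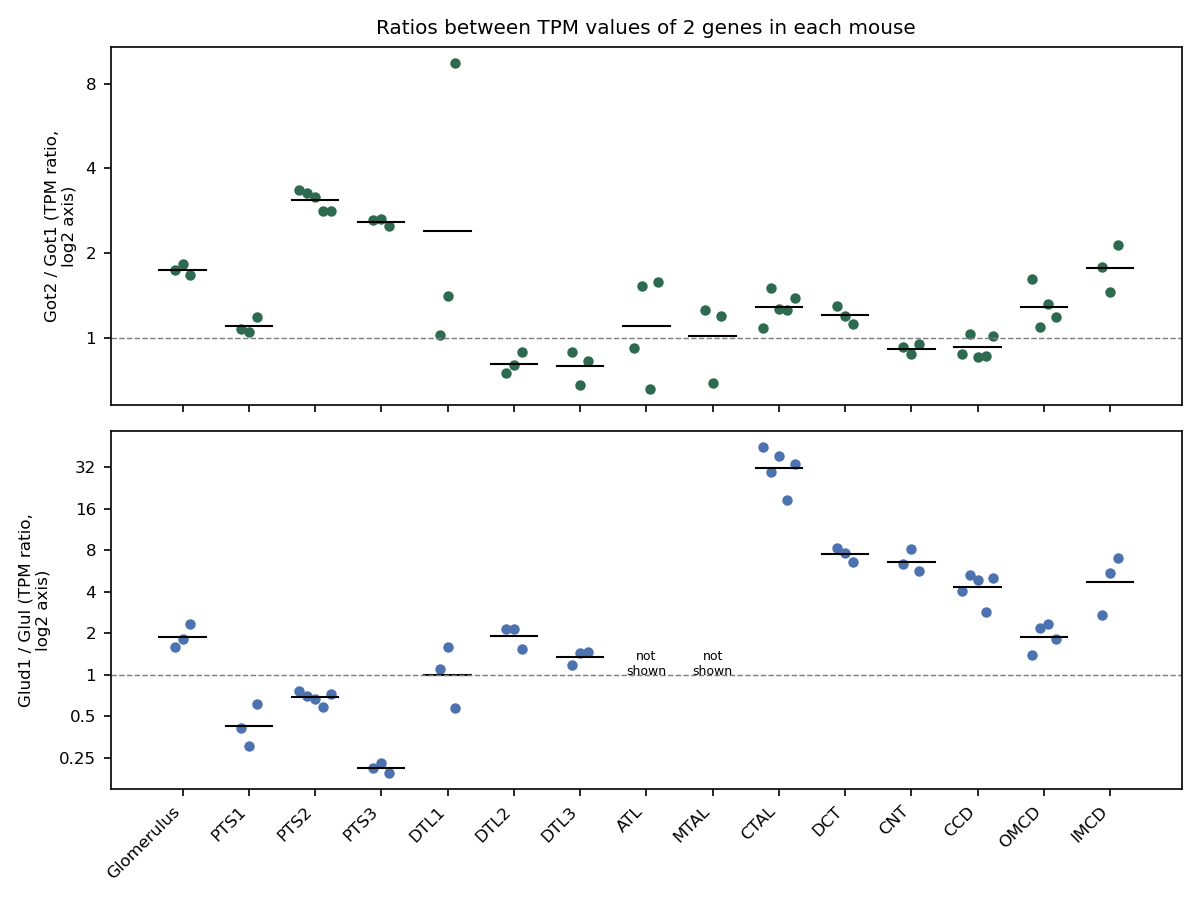
TPM ratio of Got2 to Got1 (upper panel) and of Glud1 to Glul (lower panel) in each mouse on a log2 axis, by group; points are mice, bars are geometric means and the dashed line marks equal levels. Got2 exceeds Got1 in all mice of 9 groups, with arithmetic means of 3.09 in PTS2 and 2.58 in PTS3 against 1.10 in PTS1. Glud1 exceeds Glul in all mice from CTAL to IMCD but in no mouse of PTS1, PTS2 or PTS3.

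Slc38a3 encodes SNAT3, a sodium-coupled transporter that carries glutamine across the basolateral membrane of proximal cells. Its transcript was found in the straight proximal tubule and not in the first convoluted part. The 5 PTS2 mice had 83.5, 115, 102, 103 and 108 TPM and the PTS3 mice had 68.8, 65.3 and 60.5 TPM, whereas the PTS1 mice had 0.78, 0.25 and 0.75 TPM. PTS1 minus PTS2 was -6.03 (SE 0.36, adjusted p = 3.24e-18) and PTS1 minus PTS3 was -5.39 (SE 0.40, adjusted p = 5.87e-15). PTS2 held 48.9% and PTS3 30.9% of the sum of the 15 group means. PTS2 lay above PTS3 without overlap, but the difference of 0.64 (SE 0.36, adjusted p = 0.397) was not called.

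The transcript continued into the start of the descending limb at lower levels. The DTL1 mice had 7.91, 6.67 and 14.1 TPM and the DTL2 mice 19.9, 13 and 21.3 TPM, with overlap. DTL1 minus DTL2 was -0.86 (SE 0.40, adjusted p = 0.0765), and was called after quantile normalization (-1.95) and without DTL1 mouse 5 (-1.15). DTL3 had 2.10, 1.53 and 0.75 TPM, and DTL2 minus DTL3 was 2.93 (SE 0.40, adjusted p = 3.01e-07). Proximal markers moved in the same direction, with the 9-gene list summing to 149 to 501 TPM in DTL2 and 8.63 to 42.8 TPM in DTL3, and their part in the result was not tested. Between DTL1 and DTL2 these markers went the other way from Slc38a3, at 1111 to 4379 TPM in DTL1. Relative to the proximal end, PTS3 minus DTL1 was 2.71 (SE 0.40, adjusted p = 1.14e-07) and PTS3 minus DTL2 was 1.86 (SE 0.40, adjusted p = 0.000141).

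A second, small rise of Slc38a3 came in the distal convoluted tubule. The DCT mice had 4.005, 6.58 and 4.70 TPM, above all 5 CTAL mice (0.34 to 2.29 TPM), and CTAL minus DCT was -1.60 (SE 0.36, adjusted p = 0.00154). The call was lost with a pseudocount of 5, at -0.73. CNT had 1.70, 2.17 and 2.65 TPM, while the CCD mice all lay under 1 TPM (0.13 to 0.515). It was listed at 0 in every MTAL mouse and in 3 of 4 ATL mice. Across the proximal groups the mean was 56.0 TPM and across the collecting groups 1.048 TPM, a difference of 3.56 (SE 0.21, adjusted p = 1.9e-19).

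Got1 and Got2 encode the cytosolic and mitochondrial aspartate aminotransferases, which together with their carriers form the malate-aspartate shuttle. Both were abundant in the thick ascending limb and onward to the cortical collecting duct, and in DTL2. The 300-base windows around their starts are printed because these genes shared most of their pattern. Along the proximal tubule both fell, but they differed in the size and place of the fall. A link between the letters and this difference was not tested. Each runs from 250 bases before the start to 50 after it, on the minus strand, from RefSeq (GRCm38.p6), at chr19:43524556-43524855 for Got1 and chr8:95888352-95888651 for Got2. In the GENCODE M21 annotation Got1 has the same start, whereas Got2 starts at 95888547, upstream of the RefSeq start and inside the window. The match counts below hold for the RefSeq starts only. Capitals mark CCAAT on either strand, ATTGG being the same letters read on the other strand.
Got1: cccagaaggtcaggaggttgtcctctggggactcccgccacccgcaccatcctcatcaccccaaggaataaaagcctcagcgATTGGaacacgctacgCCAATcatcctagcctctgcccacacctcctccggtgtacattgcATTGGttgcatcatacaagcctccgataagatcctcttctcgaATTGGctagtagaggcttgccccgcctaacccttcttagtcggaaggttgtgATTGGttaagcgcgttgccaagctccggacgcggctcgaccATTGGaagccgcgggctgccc
Got2: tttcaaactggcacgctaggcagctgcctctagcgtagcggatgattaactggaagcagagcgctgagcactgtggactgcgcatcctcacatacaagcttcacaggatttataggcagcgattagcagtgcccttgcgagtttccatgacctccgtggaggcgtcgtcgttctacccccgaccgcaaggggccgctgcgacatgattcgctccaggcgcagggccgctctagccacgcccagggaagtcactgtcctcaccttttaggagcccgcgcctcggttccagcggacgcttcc
The Got1 window held 6 matches to CCAAT and the Got2 window 0. Among 32851 mouse promoter windows of the same length, 37.4% held at least 1 match and 0.0791% held 6 or more. GGGCGG (in 35.7% of windows), CACGTG (7.15%) and TGTTTA (13.4%) had no match in either window, and TATAAA (13.6%) had 1 match in Got2 only. A match is a description of the letters and was not tested as a site. Of the 7 members, 5 had a window in the table (not Rhbg or Slc38a3). Glul had 2 matches to CCAAT, and Glud1 and Rhcg had 0. For GGGCGG, Glud1 had 3, Rhcg 2 and Glul 1. The 6 of Got1 was the highest count of any motif in these windows, so its share of 0.0791% belongs to a picked value.

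In the proximal tubule Got1 fell sharply after the first segment. The PTS1 mice had 153, 138 and 162 TPM, the PTS2 mice 32.1, 32.0, 30.1, 38.7 and 35.8 TPM, and the PTS3 mice 22.0, 19.4 and 24.2 TPM. No group overlapped another. PTS1 minus PTS2 was 2.14 (SE 0.30, adjusted p = 1.4e-07), a ratio of means of 4.48, and PTS2 minus PTS3 was 0.61 (SE 0.30, adjusted p = 0.254). Got2 had 165, 144 and 192 TPM in PTS1, 108, 104, 95.1, 109 and 101 TPM in PTS2 and 57.7, 51.0 and 60.5 TPM in PTS3. Its differences were 0.68 (SE 0.14, adjusted p = 0.000151) for PTS1 minus PTS2 and 0.87 (SE 0.14, adjusted p = 5.82e-06) for PTS2 minus PTS3, each past the p threshold but under 1 log2 unit. PTS1 minus PTS3 was called for both genes, at 2.74 (SE 0.33, adjusted p = 5.93e-09) for Got1 and 1.54 (SE 0.15, adjusted p = 3.77e-11) for Got2. The ratio of Got2 to Got1 was 1.10 ± 0.07 (SD, n = 3) in PTS1, 3.09 ± 0.25 (n = 5) in PTS2 and 2.58 ± 0.07 (n = 3) in PTS3, with no overlap between PTS1 and the others.

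Among the thin limbs both aminotransferases peaked in DTL2. Got1 was 304, 295 and 267 TPM there against 106, 126 and 107 TPM in DTL3, and Got2 was 227, 236 and 236 TPM against 94.5, 85.7 and 88.2 TPM. DTL2 minus DTL3 was 1.35 (SE 0.33, adjusted p = 0.00239) for Got1 and 1.37 (SE 0.15, adjusted p = 2.39e-09) for Got2. In DTL1 the mice were uneven for Got1, with 72.4 TPM in mouse 1, 49.9 in mouse 3 and 9.16 in mouse 5. Got2 in the same mice was at 74.1, 70.0 and 86.8 TPM. DTL1 minus DTL2 was -3.11 (SE 0.33, adjusted p = 4.76e-10) for Got1 and -1.59 (SE 0.15, adjusted p = 3.69e-11) for Got2. With only these groups in the fit the adjusted p for Got1 was 0.0534. In ATL both were low again, at means of 42.5 ± 11.4 and 46.9 ± 14.1 TPM (SD, n = 4).

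The thick limb carried both at high levels. Got2 was highest of all in CTAL, at 348 ± 19.4 TPM (SD, n = 5), followed by DCT, CNT and MTAL with overlapping mice and means down to 305 TPM. Got1 was highest in CNT, at 343 ± 23.4 TPM (n = 3), followed by MTAL, DTL2, DCT, CTAL and CCD, again overlapping. In MTAL the Got1 values were 216, 496 and 252 TPM, and both pieces of mouse 2 were high (494 and 498 TPM). ATL minus MTAL was -2.83 (SE 0.31, adjusted p = 2.83e-10) for Got1 and -2.72 (SE 0.14, adjusted p = 2.96e-20) for Got2. From MTAL to CCD no step between neighbours was called for either gene.

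Both genes were lower toward the papilla. Got1 was 293, 238, 297, 236 and 256 TPM in CCD, 69.9, 104, 108 and 116 TPM in OMCD and 21.0, 32.0 and 28.4 TPM in IMCD, with no overlap. CCD minus OMCD was 1.42 (SE 0.27, adjusted p = 0.00013) and OMCD minus IMCD was 1.83 (SE 0.31, adjusted p = 5.56e-06). For Got2 the same steps were 0.95 (SE 0.13, adjusted p = 2.12e-07), just under the size required, and 1.40 (SE 0.14, adjusted p = 6.88e-11). The size of 1 was passed at 1.01 without CCD mouse 4 or without OMCD mouse 3. Set against the collecting groups, the proximal groups were lower by -2.08 (SE 0.17, adjusted p = 1.88e-14) for Got1 and by -1.10 (SE 0.08, adjusted p = 3.03e-16) for Got2. The Got2 value was -0.10 after median ratio rescaling and -0.80 after quantile normalization, so its call depended on the scaling.

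Rhbg and Rhcg encode Rh glycoproteins that pass ammonia through the membranes of collecting duct cells, Rhbg at the basolateral side and Rhcg at the apical and basolateral sides. Both were abundant in DCT, CNT, CCD and OMCD and near 0 in the other 11 groups. The DCT mice had 356, 393 and 338 TPM of Rhbg, the CNT mice 1589.5, 1362 and 1419.97 TPM, the CCD mice 968, 997, 1062, 953 and 977 TPM, and the OMCD mice 687, 478, 663 and 679 TPM. No pair of these groups overlapped. Elsewhere the highest mouse had 3.24 TPM, in IMCD. Rhcg was higher than Rhbg in every mouse of the 4 groups, with 875, 948 and 890 TPM in DCT, 3365, 2818 and 3380 TPM in CNT, 3230, 3145, 3328, 3322 and 3166 TPM in CCD and 1679, 1962, 2626 and 2460 TPM in OMCD. CNT and CCD overlapped for Rhcg, and the other groups did not. Outside the 4 groups its highest group mean was 1.28 TPM, in CTAL, and it was listed at 0 in every ATL mouse.

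The onset was abrupt. CTAL minus DCT was -7.71 (SE 0.22, adjusted p = 9.51e-30) for Rhbg and -8.66 (SE 0.15, adjusted p = 1.51e-38) for Rhcg, whose mean was 705 times higher in DCT. From DCT to CNT a further step of -2.07 (SE 0.25, adjusted p = 9.76e-09) for Rhbg and -1.82 (SE 0.16, adjusted p = 5.27e-12) for Rhcg was called, with ratios of means of 4.02 and 3.52. The end was as abrupt. OMCD minus IMCD was 8.40 (SE 0.23, adjusted p = 1e-30) for Rhbg and 10.05 (SE 0.15, adjusted p = 9.05e-41) for Rhcg. Between CNT and CCD, Rhbg differed by 0.55 (SE 0.22, adjusted p = 0.366) and Rhcg by -0.03 (SE 0.15, adjusted p = 1). Between CCD and OMCD the differences of 0.68 (SE 0.20, adjusted p = 0.0106) and 0.59 (SE 0.13, adjusted p = 0.000959) passed the p threshold but not the size.

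Rhcg over Rhbg was 2.502 ± 0.11 (SD, n = 3) in DCT and 2.19 ± 0.17 (n = 3) in CNT, and 3.27 ± 0.14 (n = 5) in CCD and 3.53 ± 0.75 (n = 4) in OMCD. Every CCD mouse (3.14 to 3.49) lay above every DCT and CNT mouse (2.07 to 2.63). OMCD ranged from 2.45 to 4.11 and overlapped DCT. These ratios are a description and were not tested.

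Markers of intercalated cells, the acid-secreting and base-secreting cells of these segments, moved with the Rh genes. Their 11-gene list summed to 141 to 232 TPM in CTAL with 3 of 11 genes at 1 TPM or more. It summed to 1161 to 1299 TPM in DCT, 8000 to 8683 TPM in CNT, 6378 to 8199 TPM in CCD and 3943 to 5400 TPM in OMCD, with 11 of 11 in each. In IMCD it summed to 1.11 to 7.07 TPM with 0 of 11. The sum of the 7-gene principal cell list, to which single genes contribute unequally, remained high in IMCD. It came to 1109 to 1249 TPM in DCT, 12701 to 16518 TPM in CNT, 22657 to 28178 TPM in CCD and 29398 to 46814 TPM in OMCD, and was still 27389 to 31631 TPM in IMCD with 5 of 7 genes at 1 TPM or more, where both Rh genes had group means of 1.32 and 1.27 TPM. Scnn1g of that list was at 0.358 TPM in IMCD, like the Rh genes. The part of cell composition in the Rh levels was not tested, nor was its part in the OMCD minus IMCD differences of Glul, Got1 and Got2.

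**Figure D3:**
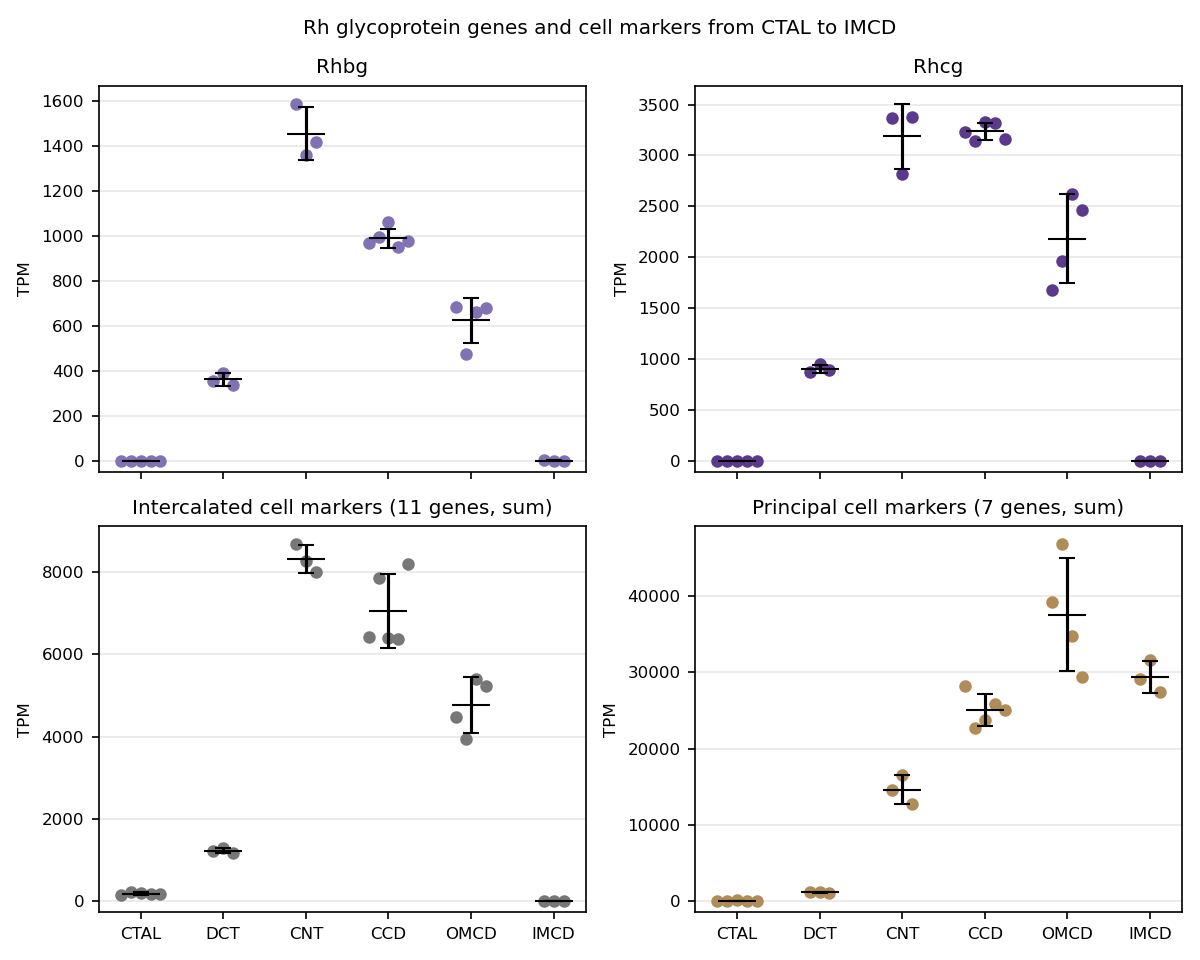
Levels in TPM on linear axes from CTAL to IMCD of Rhbg and Rhcg (upper panels) and the summed TPM of 11 intercalated and 7 principal cell markers (lower panels); points are mice, bars are means and error bars SD over mice. The Rh genes and the intercalated list are low in CTAL and IMCD and high in CNT and CCD. The sum of the principal list remains at 27389 TPM or more in IMCD, with 5 of 7 genes at 1 TPM or more.

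Trace levels of Rhcg also differed between groups upstream. It was 0.90 to 1.56 TPM in the 5 PTS2 mice against 0.22, 0 and 0 TPM in PTS3, and PTS2 minus PTS3 was 1.09 (SE 0.15, adjusted p = 2.16e-07). PTS1 minus PTS2 was -0.93 (SE 0.15, adjusted p = 1.69e-06), under the size required, and was called with a pseudocount of 0.1 (-2.73), after median ratio (-1.24) and quantile (-1.70) scaling and without PTS1 mouse 3 (-1.16). The gene was at 1.12 to 1.72 TPM in CTAL against 0, 0.01 and 0 TPM in MTAL, and MTAL minus CTAL was -1.15 (SE 0.15, adjusted p = 1.25e-07). The calls for PTS2 minus PTS3 and MTAL minus CTAL were lost with a pseudocount of 5, at 0.31 and -0.32. The intercalated list summed to 8.46 to 28.0 TPM in MTAL and 141 to 232 TPM in CTAL, and its part in the MTAL minus CTAL difference was not tested. The principal cell list had 4 of 7 genes at 1 TPM or more in PTS2, against 1 of 7 in PTS1 and in PTS3. Its sum was 37.1 to 48.1 TPM in PTS2, 46.7 to 57.1 TPM in PTS1 and 17.5 to 36.7 TPM in PTS3. The intercalated list summed to 2.92 to 3.52 TPM in PTS2 and 0.005 to 4.8 TPM in PTS3. Their part in the proximal differences was not tested.

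Step by step, the counts of members called stand beside the share of all genes called in the same comparison. Since the members were chosen with earlier results of these data known, these counts are a description. For PTS1 minus PTS2, 2 of 7 were called (Got1 higher in PTS1, Slc38a3 lower), against 9.57% of all genes. For PTS2 minus PTS3, 2 of 7 (Glud1 and Rhcg, higher in PTS2) were called against 4.7%, and for PTS1 minus PTS3, 4 of 7 (Glud1, Got1 and Got2 higher, Slc38a3 lower in PTS1) against 10.1%. The steps into the descending limb moved much of the transcriptome. PTS3 minus DTL1 called 65.5% of all genes, with a median over all genes of -1.33, and 2 of 7 members (Slc38a3 higher, Glud1 lower in PTS3), so the members' count lay under the background. PTS3 minus DTL2 called 40% with a median of -0.71 and 5 of 7 members (Glul and Slc38a3 higher, Glud1, Got1 and Got2 lower in PTS3). Glud1 was -1.35 (SE 0.16, adjusted p = 4.1e-10) in the first and -1.18 (SE 0.16, adjusted p = 1.66e-08) in the second, close to or beyond the median of all genes. It was 0.06 in each after median ratio rescaling (adjusted p = 0.72 and 0.76 by limma), so neither direction was seen there. After quantile normalization it was -0.80 and -0.65, of the same direction but under the size required. Got2 for PTS3 minus DTL2 was -2.03 (SE 0.15, adjusted p = 2.82e-15), and -0.80 after median ratio rescaling, which ended the call. For Got1 this step was -3.68 (SE 0.33, adjusted p = 5.68e-13), and for Glul it was 1.99 (SE 0.42, adjusted p = 8.6e-05).

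DTL1 minus DTL2 called 28.2% of all genes, with a median of 0.54, and 3 of 7 members (Glul higher, Got1 and Got2 lower in DTL1). The Glul value of 1.10 (SE 0.42, adjusted p = 0.0279) was lost with a pseudocount of 0.1, after median ratio rescaling (0.93), with the mouse as a random effect (0.97) and with only these groups in the fit. It was also lost without DTL1 mouse 5 (0.76), DTL2 mouse 1 (adjusted p = 0.0843 by limma) or DTL2 mouse 2 (0.97). DTL2 minus DTL3 called 9.58% and 3 of 7 members (Slc38a3, Got1 and Got2, higher in DTL2). DTL3 minus ATL called 14.6% and 2 of 7 (Glul and Got1, higher in DTL3, Got1 at 1.43, SE 0.31, adjusted p = 0.000348). ATL minus MTAL called 28.1% with a median of 0.48 and 2 of 7 (Got1 and Got2, lower in ATL). With ATL mice 4 and 6 alone, Glul at 1.48 and Slc38a3 at 1.40 were called too, and the share of all genes called was 47.4%. With ATL mice 2 and 3 alone it was 16.2%. For DTL3 minus ATL the share was 31% with mice 2 and 3 alone, where Slc38a3 was called too (1.25), and 23.4% with mice 4 and 6 alone, where Got2 was called too (1.29).

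Beyond the thin limbs the shares of all genes called were lower at most steps. MTAL minus CTAL called 3.15% of all genes and 2 of 7 members (Glul and Rhcg, lower in MTAL). CTAL minus DCT called 4.35% and 4 of 7 (Glul, Slc38a3, Rhbg and Rhcg, lower in CTAL). DCT minus CNT called 5.22% and 2 of 7 (Rhbg and Rhcg, lower in DCT). CNT minus CCD called 1.12% and 0 of 7 by limma, with 4 members at an unadjusted p under 0.05. Slc38a3 was the closest there, at 1.19 (SE 0.36, adjusted p = 0.0904), and it was called with the mouse as a random effect over all samples, with quantile normalization and with only these groups in the fit (1.17, 1.06 and 1.19). CCD minus OMCD called 12.1% and 1 of 7 (Got1, higher in CCD). OMCD minus IMCD called 18.6% with a median of 0.32 and 5 of 7 (Glul, Got1, Got2, Rhbg and Rhcg, higher in OMCD). The proximal minus collecting comparison called 24.2% and 6 of 7, all but Glud1. Averaged over groups, Glul and Slc38a3 were higher in the proximal groups and Got1, Got2, Rhbg and Rhcg lower. Some single groups went the other way. Slc38a3 in PTS1 (0.25 to 0.78 TPM) lay below every CNT mouse (1.695 to 2.65 TPM). Got1 and Got2 in PTS1 (at least 138 and 144 TPM) lay above every OMCD mouse (at most 116 and 142 TPM).

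**Figure D4:**
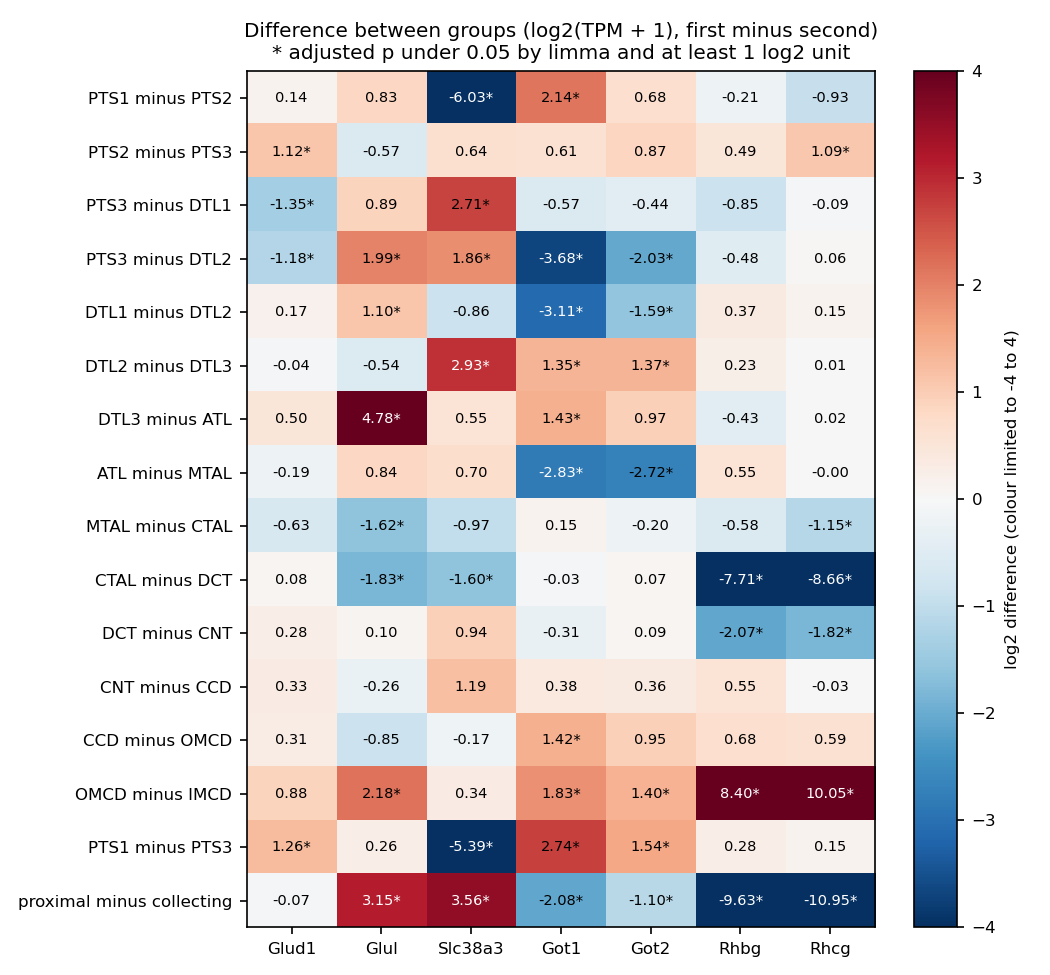
Differences in log2(TPM + 1) between groups for the 7 genes, first group minus second; red is higher in the first group, blue lower, the colour is limited to 4 units, and an asterisk marks an adjusted p under 0.05 by limma with a size of at least 1. Between neighbours, values beyond the colour limit are those of Rhbg and Rhcg at their onset between CTAL and DCT and their end between OMCD and IMCD, of Slc38a3 between PTS1 and PTS2 and of Glul between DTL3 and ATL (4.78). Proximal minus collecting is -9.63 for Rhbg and -10.95 for Rhcg.

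Other genes of glutamine and glutamate breakdown numbered 20 and were all tested. Counts for this and the next 3 lists stand beside the shares of all genes called in the same comparisons, which were 9.57% for PTS1 minus PTS2, 4.7% for PTS2 minus PTS3, 3.15% for MTAL minus CTAL, 12.1% for CCD minus OMCD and 24.2% for proximal minus collecting. Of those calls, 46.6%, 83.9%, 18.7%, 14.3% and 17.7% were higher in the first group. Counts that lean higher for PTS2 minus PTS3 thus follow the direction of all genes. So do counts that lean lower for MTAL minus CTAL or proximal minus collecting. After median ratio rescaling the shares of calls higher in the first group were 62.0%, 64.5%, 24.6%, 25.5% and 50.1%. After quantile normalization they were 51.5%, 65.6%, 28.5%, 56.5% and 48.0%. Between PTS1 and PTS2, 2 were higher and 4 lower in PTS1, with a list median of 0.17 against 0.15 over all genes. Prodh2, which oxidises hydroxyproline, had 355 TPM in PTS1 and 0.94 in PTS2 (7.65, SE 0.34, adjusted p = 6.49e-23), and Aspg, an asparaginase, had 0.995 and 138 TPM (-6.11, SE 0.26, adjusted p = 2.01e-23). Between PTS2 and PTS3, 6 were higher and 1 lower in PTS2 (median 0.79 against 0), led by the alanine aminotransferase Gpt2 (3.27, SE 0.21, adjusted p = 2.24e-16) and the succinate-CoA ligase subunit Suclg2 (2.08, SE 0.28, adjusted p = 2.7e-07). Proximal minus collecting had 8 higher and 4 lower (median 0.39 against -0.21), led by the gluconeogenic Fbp1 (9.47, SE 0.32, adjusted p = 1.11e-28) and Pck1 (8.85, SE 0.29, adjusted p = 2.61e-29). MTAL minus CTAL had 1 higher and 3 lower (median -0.46 against -0.01), with Fbp1 at -4.27 (SE 0.54, adjusted p = 1.22e-07). Fbp1, and Slc1a1 of the next list, were abundant in the proximal groups, and proximal markers were higher in CTAL than in MTAL (82.7 to 439.6 against 0.81 to 15.5 TPM). Their part was not tested. CCD minus OMCD had 3 higher and 0 lower (median 0.49 against -0.30), with malate dehydrogenase Mdh2 at 1.06 (SE 0.15, adjusted p = 6.35e-07). The other calls, at means under 10 TPM, were Fbp1 at 2.09 (9.97 TPM in CCD, 1.135 in OMCD) and Pck1 at 1.80 (6.81 and 0.94 TPM). Both were abundant in the proximal groups. Proximal markers summed to 109.9 to 549.8 TPM in CCD and 5.8 to 16.0 TPM in OMCD, and their part in these calls was not tested.

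Of 14 genes listed for glutamine and glutamate transport, 13 were tested (not Slc38a5). PTS1 minus PTS2 had 6 higher and 1 lower (median 0.73 against 0.15). The apical neutral amino acid transporter Slc6a19 had 1170.3 TPM in PTS1 and 8.80 in PTS2 (6.91, SE 0.39, adjusted p = 4.29e-19), and Slc7a8, a basolateral exchanger, had 373 and 12.04 TPM (4.81, SE 0.36, adjusted p = 6.9e-15). These 2 moved opposite to Slc38a3. PTS2 minus PTS3 had 5 higher and 0 lower (median 0.66 against 0; 83.9% of all calls were higher in PTS2), led by Slc7a8 (2.88) and its partner Slc3a2 (2.21). MTAL minus CTAL had 0 higher and 2 lower (median -0.16 against -0.01), the glutamate transporter Slc1a1 (-4.27) and Slc7a8 (-2.01). CCD minus OMCD had 2 higher and 0 lower (median -0.14 against -0.30), Slc7a8 (1.16) and Slc3a2 (1.005). Proximal minus collecting had 3 higher and 6 lower (median -0.88 against -0.21), with Slc1a1 at 200 and 0.628 TPM (6.86, SE 0.17, adjusted p = 6.71e-34) and the glutamine exchanger Slc1a5 at 1.57 and 148 TPM (-6.04, SE 0.26, adjusted p = 7.3e-25).

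Of 7 mitochondrial glutamate and dicarboxylate carriers, 6 were tested (not Slc25a18). By limma 0 were called in PTS1 minus PTS2, in MTAL minus CTAL and in CCD minus OMCD, with 3, 2 and 1 at an unadjusted p under 0.05, and list medians of -0.29, -0.34 and 0.18 against 0.15, -0.01 and -0.30 over all genes. PTS2 minus PTS3 had 2 higher and 0 lower (median 0.73 against 0), the aspartate-glutamate carriers Slc25a12 (1.09, SE 0.20, adjusted p = 8e-05) and Slc25a13 (1.15, SE 0.21, adjusted p = 5.23e-05), which export aspartate made by Got2. Proximal minus collecting had 1 higher and 1 lower (median 0.02 against -0.21), the dicarboxylate carrier Slc25a10 (2.49) and Slc25a12 (-1.94, SE 0.12, adjusted p = 5.73e-19), the latter in the same direction as Got1 and Got2.

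Other routes of ammonium and acid made up a list of 18, of which 17 were tested (not Aqp8). PTS1 minus PTS2 had 4 higher and 2 lower (median -0.23 against 0.15), led by carbonic anhydrase Car2 (4.69) and the bicarbonate cotransporter Slc4a4 (2.31). PTS2 minus PTS3 had 6 higher and 0 lower (median 0.67 against 0; again 83.9% over all calls), led by Car4 (8.66) and by Slc9a3 (3.95), the apical sodium-proton exchanger. MTAL minus CTAL had 0 higher and 3 lower (median -0.35 against -0.01), led by the proton pump genes Atp4a (-3.19) and Atp6v1b1 (-3.18), the latter itself an intercalated cell marker. CCD minus OMCD had 3 higher and 2 lower (median 0.22 against -0.30), led by Atp4a (4.74) and Atp12a (2.497). Proximal minus collecting had 3 higher and 10 lower (median -2.31 against -0.21), led by the potassium channel Kcnj1 (-9.86) and the chloride-bicarbonate exchanger Slc4a1 (-9.35), each with an adjusted p of at most 4.54e-42 by limma.

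Likeness was measured as Pearson's r of log2(TPM + 1) over the 15 group means, among 12003 genes, as a description in which all points share libraries. Rhbg and Rhcg had 0.996 with each other, and Got1 and Got2 had 0.939. Glul with Slc38a3 had 0.601 and Glud1 with Got2 had 0.578. The gene most like Rhbg was Scnn1g (0.999), a sodium channel subunit from the principal cell list, followed by the intercalated cell factor Foxi1 (0.997) and the proton pump subunit Atp6v1g3 (0.996). Rhcg had Scnn1g (0.997), Atp6v1g3 (0.995) and Scnn1b (0.994). Scnn1g had 344 ± 21.8 TPM (SD, n = 3) in DCT, 950.5 ± 66.6 (n = 3) in CNT, 1055 ± 33.2 (n = 5) in CCD, 619.7 ± 69.9 (n = 4) in OMCD and 0.358 ± 0.448 (n = 3) in IMCD.

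The genes most like Got1 were the adenine nucleotide carrier Slc25a4 (0.948), citrate synthase Cs (0.941) and the isocitrate dehydrogenase subunit Idh3a (0.936), and those most like Got2 were the ATP synthase subunit Atp5a1 (0.972), the succinate dehydrogenase subunit Sdha (0.966) and Idh3a (0.963). Slc38a3 had the desaturase Scd1 (0.926), the protease Napsa (0.923) and Acsm3 (0.920). Glud1 had Gas6 (0.864), Mapre2 (0.846) and Mto1 (0.841), the lowest values of the 7. Glul had Mir8114 (0.900), Klhl36 (0.889) and Ctbs (0.888). Mir8114 lies inside Glul on the same strand over 93 bases, so its reads cannot be told from those of Glul.

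By gene identifier in the GENCODE M21 annotation of GRCm38, all 7 are protein-coding genes. Glud1 (ENSMUSG00000021794) lies at chr14:34310727-34345265 and Glul (ENSMUSG00000026473) at chr1:153899944-153909723, both on the plus strand. The others are on the minus strand. Slc38a3 (ENSMUSG00000010064) lies at chr9:107650634-107669530, Got1 (ENSMUSG00000025190) at chr19:43499752-43524605 and Got2 (ENSMUSG00000031672) at chr8:95864134-95888547. Rhbg (ENSMUSG00000104445) lies at chr3:88242874-88254709 and Rhcg (ENSMUSG00000030549) at chr7:79593363-79617657. Rhbg overlaps Gm38392 on the same strand over 11330 bases, and Rhcg overlaps Gm45170 on the same strand over 1671 bases. Their highest group means were 5.80 and 3.67 TPM, both in OMCD, and how the authors' counting divides reads between such pairs is not given in the sources used here. On the opposite strand, Gm45760 overlaps Got2 and Teddm2 overlaps Glul, with highest group means of 3.27 and 2.07 TPM, and whether counting used strand is not given either. Got2 has a pseudogene copy, Got2-ps1, with at most 7.87 TPM (CNT), and Glud-ps had at most 2.62 TPM (DTL1).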

How the data were processed

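Transcript abundance was measured in 93 microdissected samples of mouse kidney. Per the labels' protocols, the kits used were Direct-zol for RNA, SMARTer V4 ultra low for cDNA and Nextera XT for libraries. The submitters' processing notes name STAR 2.5.4a and RSEM 1.3.0, with no settings. The genome build and annotation are not given in the sources used here. The deposited TPM values, computed by the authors, summed to between 999998.6 and 1000190.3 in each sample. TPM keep no read depth, so depth is unknown and no counting interval is given. The smallest value above 0 was 0.01 TPM in tubules and 0.1 TPM in glomeruli. Another 3 samples, prepared as single cells, were not analysed here.

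Columns were assigned by name. A PTS2 column whose name gives mouse 2 fitted no title and entered as an unnumbered PTS2 mouse. The title of another piece of that mouse had no column. Pieces of 1 mouse and segment were averaged as log2(TPM + 1), and limma 3.58.1 (R 4.3.3; lmFit, eBayes with a trend) was fitted to all 15 groups together, so that they share 1 estimate of the spread. Genes needed 1 TPM in at least 3 mice. Tests were two-sided except the highest-group test, which took the largest one-sided p over the other 14 groups. P-values were adjusted over all 33793 genes within each comparison. The procedure was tested on simulated data. Proximal means PTS1, PTS2 and PTS3, and collecting means CNT, CCD and OMCD, with groups weighted equally. Figures were drawn with Python 3.11.15 and matplotlib 3.10.9.

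The mouse numbers repeat across segments, but the study states as many mice as there are combinations of number and segment (53), so numbers were not used to pair samples. The members and lists were chosen with earlier results of these data known. All 7 members are named whatever their values. From each of 4 pathway lists, the 2 called genes with the largest difference and a higher mean of at least 10 TPM are named, and for each member the 3 genes of highest r. One gene that this rule names is not reported here. Promoter windows came from RefSeq (GRCm38.p6) by symbol, and gene positions from GENCODE M21 by identifier. The alternatives tried were a pseudocount of 0.1 or 5, filtering at 5 TPM or not at all, median ratio and quantile scaling, averaging before the log, all samples with the mouse as a random effect, a replicate block, ATL mice 2 and 3 or 4 and 6 alone, fits with only the groups compared, and each mouse left out.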

Additional observations from a re-analysis of the deposited data

Results flagged for a closer look

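In groups of 4 or 5 mice, 5 values lay apart from the other mice of their group, by the gap to the nearest mouse over the whole range. All 7 members were checked in PTS2, ATL, CTAL, CCD and OMCD, save Rhcg in ATL, where every mouse was at 0. Chance flags about 1 such check in 20 where values are normally distributed, a rate that need not hold for TPM near 0. CCD mouse 4 was apart for Glul, at 34.51 TPM against 19.19 to 22.08 TPM in the other mice, and for Got2, at 203.58 TPM against 245.32 to 259.77 TPM. ATL mouse 4 had 6 TPM of Slc38a3, which was listed at 0 in the other 3 ATL mice. OMCD mouse 2 had 477.57 TPM of Rhbg, against 663 to 687 TPM in the others. CTAL mouse 3 had 1.715 TPM of Rhcg, against 1.12 to 1.22 TPM.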

How the results depend on the processing

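Of the 45 called differences, 34 kept their call and direction under every alternative run. Over those differences, alternatives other than left-out mice gave 458 values, of which 440 kept the call, 16 lost it and 2 changed sign, and left-out mice gave 404 values, of which 401 kept it and 3 lost it. All 7 members passed the F-test under every alternative, and none was called by the highest-group test under any (0 of 7 by limma). After median ratio rescaling over 11566 genes, Glud1 was 0.0554 for PTS3 minus DTL1 and 0.0566 for PTS3 minus DTL2. The median over all genes was -0.80 and -0.37 there, against -1.33 and -0.71 without it. Under median ratio rescaling 1 member was called for PTS2 minus PTS3, against 4.9% of all genes. For PTS3 minus DTL2 it was 3 members (29.1% of all genes) and for CCD minus OMCD 2 (8.32%). For MTAL minus CTAL it was 4 with a pseudocount of 0.1 (4.09% of all genes) and 0 with a pseudocount of 5 (1.46%). PTS2 minus PTS3 had 1 with a pseudocount of 5 (2.26%). Quantile normalization gave 1 for PTS3 minus DTL1 (28.6% of all genes) and 1 for CNT minus CCD (0.725%). CNT minus CCD also had 1 with the mouse as a random effect (1.26% of all genes) and with only those groups in the fit (1.18%). DTL1 minus DTL2 had 1 with only its own groups in the fit (7.2%). ATL minus MTAL had 4 with ATL mice 4 and 6 alone (47.4%). With a mouse left out, the number of members ranged from 2 to 4 for PTS3 minus DTL1. It was 4 without DTL1 mouse 5 (66.3% of all genes). For CCD minus OMCD it ranged from 1 to 2, with 2 without CCD mouse 4 or OMCD mouse 3. With every mouse kept, 12.1% of all genes were called for CCD minus OMCD. The causes were not tested.

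With the replicate block, which took the mouse number as a block across segments, CNT minus CCD had 1 member called (Slc38a3, 1.35). The share of all genes called there was 1.11%. Glul for PTS1 minus PTS2 (1.005) and Slc38a3 for DTL1 minus DTL2 (-1.01) were called in addition. Samples of the same number did not deviate together, with a median correlation of 0.000185 over 290 pairs against 0.000366 over 968 pairs of different numbers. Groups of 3 to 5 mice and unknown depth limit the values near 0, where Rhbg, Rhcg and Slc38a3 calls changed with the pseudocount. The share of all genes called also varied over the alternatives, left-out mice and the ATL subsets aside. It ran from 28.6% to 76.9% for PTS3 minus DTL1, 18.4% to 60.6% for PTS3 minus DTL2, 7.2% to 30.6% for DTL1 minus DTL2, 4.27% to 14% for DTL2 minus DTL3, 4.12% to 27.4% for DTL3 minus ATL and 8.9% to 42.6% for ATL minus MTAL. In the proximal tubule it ran from 5.36% to 26.4% for PTS1 minus PTS2, 2.26% to 8.43% for PTS2 minus PTS3 and 5.37% to 25.5% for PTS1 minus PTS3. Further on it ran from 1.46% to 5.74% for MTAL minus CTAL, 2.58% to 7.65% for CTAL minus DCT, 3.12% to 9.09% for DCT minus CNT, 0.491% to 2% for CNT minus CCD, 2.48% to 33.4% for CCD minus OMCD and 8.36% to 34.5% for OMCD minus IMCD. It was 15% to 42.4% for proximal minus collecting and 76.8% to 96.4% for the F-test.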
